A study of Homo sapiens with 12 samples.

Results

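NMI, IFI35 and EPSTI1 are 3 protein-coding genes that type I interferon switches on. They were selected by gene symbol from the 60099 genes listed in the deposited gene table, and all 3 passed the filter on low counts that left 19944 genes for testing. The RNA came from Cal27 and HN30, established human cell lines of head and neck squamous cell carcinoma (HNSCC), and IFNα was given at 0, 20 or 200 ng/ml for 24 h. Titles of the 12 samples give a letter and a replicate number. Letters A and D are controls, B and E received 20 ng/ml, and C and F received 200 ng/ml, with 2 samples per letter. Letters A to C and D to F are handled as 2 line sets. The labels do not say which set is which line, nor do they say that the replicates were separate cultures, so p-values measure only the spread between these samples. Each set stands for a single tumour line, so a comparison of the sets is a comparison of 2 lines with all that differs between them. Within a set, the labels name no treatment other than IFNα and no allele.

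Interferon alpha binds the receptor IFNAR on the cell surface, and the receptor-bound kinases TYK2 and JAK1 then phosphorylate STAT proteins, among them STAT2. STAT2 and IRF9 are part of the complex ISGF3, which binds an interferon-stimulated response element (ISRE) in the promoters of interferon-stimulated genes. NMI, named N-Myc and STAT interactor, binds STAT proteins, and it forms a complex with IFI35, the interferon-induced 35 kDa protein, that protects both from degradation. NMI and IFI35 share a domain, the NMI/IFI35 domain, through which they join. Both proteins can also be released from cells and act as alarm signals through the receptor TLR4. EPSTI1, epithelial stromal interaction protein 1, was identified in breast cancer cells grown with stromal fibroblasts, and it has been described as an interferon-induced antiviral factor that acts through the kinase PKR.

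In the deposited coordinates (GRCh38), NMI lies on the minus strand of chromosome 2 at chr2:151270465-151290057. IFI35 lies on the plus strand of chromosome 17 at chr17:43006725-43014456, and EPSTI1 lies on the minus strand of chromosome 13 at chr13:42886388-42992271. EPSTI1 spans 105884 bases, against 19593 bases for NMI and 7732 bases for IFI35. The promoters were read from RefSeq (GRCh38.p14), which had an entry for all 3, as 250 bases before to 50 bases after the RefSeq start. The stretches shown hold the letters that match an ISRE or a closely related repeat, since this is the element through which IFNα acts, and they are written 5′ to 3′ on the strand of each gene. Capitals mark the matched letters, on either strand.

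EPSTI1, chr13:42992275-42992304, minus strand: ctgctgattctgaGAAACCGAAActcagct
NMI, chr2:151289804-151289833, minus strand: gtTTTCTTTTTCactgtcttTTTCTTTTCg
IFI35, chr17:43006754-43006783, plus strand: gcagggatttcacgGAAATGAAAgtggaag

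The elements searched were the ISRE, 2 copies of GAAA with 2 bases between them, a repeat with 1 base between the copies, and the gamma-activated site (GAS) that STAT dimers bind, TTC and GAA with 3 bases between them, each on both strands. The repeat with the shorter spacing was added after the sequences had been seen. The ISRE letters were in EPSTI1 on the gene's strand, from -50 to -41 relative to the RefSeq start, and in NMI on the reverse strand, from -163 to -154. They were not in the IFI35 window. Of 27305 RefSeq promoters of the same length, 3.65% held them. The shorter spacing was in IFI35, from -16 to -8, and in NMI on the reverse strand, from -145 to -137, and 3.22% of all promoters held it. The GAS letters were in all 3 windows, as in 7.88% of promoters. They overlapped the ISRE letters in EPSTI1, from -56 to -48, and the repeat in IFI35, from -22 to -14, and in NMI they lay after the start, from 19 to 27. A match of letters is a description and not a binding site. The deposited starts lay upstream of the RefSeq starts, by 30 bases for EPSTI1, 59 bases for IFI35 and 389 bases for NMI, so that the stretches printed for IFI35 and NMI fell inside annotated exons and that of EPSTI1 did not. A longer stretch upstream of EPSTI1, the gene with the largest response of the 3, shows the setting of its element, which is again in capitals.

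EPSTI1, chr13:42992272-42992391, minus strand: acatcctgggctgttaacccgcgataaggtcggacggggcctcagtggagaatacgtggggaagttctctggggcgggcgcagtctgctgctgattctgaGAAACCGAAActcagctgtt

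The estimated counts summed to between 10517448 and 16056734 per sample. Controls had the highest median sum, at 14706828, against 12361250 at 20 ng/ml and 11692568 at 200 ng/ml. Single samples overlapped, with 12670755 in control A replicate 1 and 14865450 in B replicate 2. The 9 squamous epithelial markers examined (keratins such as KRT5, TP63, EPCAM and others) summed to between 2751 and 3371 TPM (transcript abundance scaled for length and depth) in set A-C and between 1204 and 1509 TPM in set D-F, where KRT14 did not exceed 0.254 TPM. Of the 6 leukocyte markers, PTPRC, CD3E and LYZ did not exceed 0.202 TPM and CD14 did not exceed 2.29 TPM in any sample. HLA-DRA reached 52.7 to 101 TPM in set A-C and was listed at 0 in set D-F, and with it the summed leukocyte list in A-C went from 53.7 to 60.6 TPM in controls to 94.4 to 103 TPM at 200 ng/ml. The 5 fibroblast markers summed to 5.50 to 15.4 TPM over all samples. The 3 endothelial markers summed to 15.3 to 21.7 TPM in A-C, nearly all of it CDH5, with PECAM1 at 0, and to at most 0.733 TPM in D-F.

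All 3 genes rose with IFNα at both doses. Every treated sample lay above every control sample for each gene, in both line sets. On the TPM scale the mean of NMI over the 4 samples of a dose went from 48.0 ± 19.4 (SD, n = 4) to 96.3 ± 14.3 at 20 ng/ml and 126 ± 22.5 at 200 ng/ml. IFI35 went from 17.3 ± 3.87 to 118 ± 22.3 and 136 ± 54.0 TPM, and EPSTI1 from 3.38 ± 2.43 to 39.8 ± 9.56 and 48.4 ± 12.8 TPM (SD, n = 4 at each dose). These SDs include the difference between the line sets. In RNA pooled over a culture, more responding cells and more RNA per cell cannot be told apart.

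NMI was the most abundant of the 3 before treatment. In set A-C its level was 72.2 and 54.9 TPM in the controls, 108 and 109 TPM at 20 ng/ml, and 134 and 154 TPM at 200 ng/ml. In set D-F it was 35.0 and 29.95 TPM in the controls, 81.6 and 86.4 TPM at 20 ng/ml, and 113 and 104 TPM at 200 ng/ml. In both sets the samples of the 3 doses formed separate ranges in the order of dose. IFI35 started at a similar level in both sets, with 15.3 and 20.7 TPM in A and 12.8 and 20.4 TPM in D. In set A-C it then stood at 93.5 and 105 TPM in B and at 99.2 and 79.9 TPM in C. In set D-F it stood at 141 and 132 TPM in E and at 176 and 188 TPM in F. The ranges at 20 and 200 ng/ml overlapped in A-C and were separate in D-F, a contrast between sets that was not tested. EPSTI1 was the least abundant in every sample. In set A-C it went from 3.83 and 6.64 TPM in the controls to 46.5 and 49.3 TPM at 20 ng/ml and 54.1 and 63.7 TPM at 200 ng/ml. In set D-F it went from 1.47 and 1.59 TPM to 33.6 and 29.8 TPM, and to 38.8 and 36.9 TPM at the higher dose. Here too the 3 doses formed separate ranges in both sets.

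**Figure D1:**
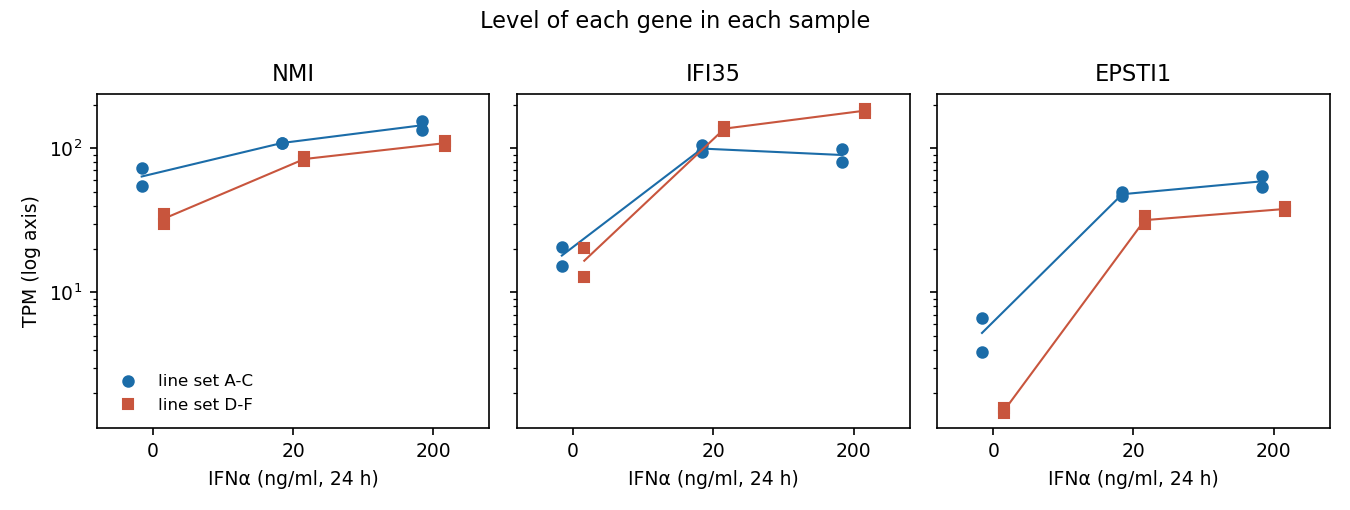
Level of NMI, IFI35 and EPSTI1 in each of the 12 samples, in TPM on a log axis, against the IFNα dose in ng/ml. Points are samples, lines join the means of the 2 replicates, and circles and squares are line sets A-C and D-F. Every treated sample lies above every control, and IFI35 is the gene whose levels in D-F pass those in A-C after treatment.

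Ordered by their mean levels, the 6 groups ran from D, A and E to F, B and C for both NMI and EPSTI1. For NMI, groups F and B overlapped, with means of 108 and 109 TPM, and the other neighbours in this order were separate. For EPSTI1 no neighbours overlapped, with means of 1.53, 5.23, 31.7, 37.8, 47.9 and 58.9 TPM. For IFI35 the order was D, A, C, B, E and F, where D and A overlapped at means of 16.57 and 17.995 TPM, C and B overlapped at 89.6 and 99.3 TPM, and E and F, at 137 and 182 TPM, were separate from the rest and from each other.

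The order of the 3 genes within a sample depended on the line set and the dose. NMI exceeded IFI35, and IFI35 exceeded EPSTI1, in all 6 samples of set A-C and in both D controls. In the 4 treated samples of set D-F, IFI35 stood above NMI, with NMI at 0.552 to 0.654 times the IFI35 level, against 1.47 and 2.74 times in the D controls. The closest levels were those of NMI and IFI35 in B, at ratios of 1.16 and 1.04. In the sample with the smaller ratio, the gap between the genes was less than the distance between the IFI35 replicates. NMI stood 8.27 to 23.9 times above EPSTI1 in controls and 2.21 to 2.91 times above it after treatment.

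Fold changes were tested on the estimated counts with the quasi-likelihood test of edgeR and Benjamini-Hochberg adjustment over all tested genes, and a gene was called if its change reached 2-fold and its adjusted p did not exceed 0.05. At 200 ng/ml, 3 of 3 genes were called higher, where 1.58% of all tested genes were called higher and 0.552% lower. EPSTI1 rose by 4.06 ± 0.14 on the log2 scale (SE; 16.7-fold; edgeR adjusted p = 7.14e-08), and it ranked 58 of all tested genes by log2 fold change. IFI35 rose by 2.90 ± 0.14 (7.45-fold; edgeR adjusted p = 1.26e-06; rank 134), and NMI by 1.43 ± 0.09 (2.69-fold; edgeR adjusted p = 8.91e-06; rank 574). The ranks go by the estimate alone and include genes without a call, since 316 genes were called higher at 200 ng/ml. At 20 ng/ml the 3 genes were again called higher, against 0.963% of all genes called higher and 0.186% lower. The log2 fold changes were 3.76 ± 0.14 for EPSTI1, 2.79 ± 0.14 for IFI35 and 1.05 ± 0.09 for NMI (SE; edgeR adjusted p = 1.64e-07, 2.01e-06 and 0.00011). NMI thus stood close to the 2-fold threshold at the lower dose, and it was under it, at 0.974 and 0.995, when A replicate 2 or D replicate 2 was left out. Both doses share the control samples.

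Between the doses, 0 of 3 genes were called, as were 0.0451% of all tested genes in either direction. The difference of 200 over 20 ng/ml was 0.38 ± 0.09 for NMI, 0.30 ± 0.12 for EPSTI1 and 0.11 ± 0.13 for IFI35 on the log2 scale (SE; edgeR adjusted p = 0.24, 0.49 and 0.85). At an unadjusted p under 0.05, 2 of the 3 genes, NMI and EPSTI1, passed in edgeR, and DESeq2 called 0.

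Within the line sets, the responses were larger in D-F for each gene, while the test of the difference did not pass. At 200 ng/ml, 3 of 3 genes were called higher in each set, against 1.41% of all genes in A-C and 1.67% in D-F. The log2 fold changes in A-C and D-F were 3.62 ± 0.19 and 4.50 ± 0.21 for EPSTI1, 2.38 ± 0.20 and 3.41 ± 0.21 for IFI35, and 1.22 ± 0.13 and 1.64 ± 0.13 for NMI (SE). D-F minus A-C came to 1.03 ± 0.27 for IFI35, 0.88 ± 0.26 for EPSTI1 and 0.42 ± 0.18 for NMI (SE; edgeR adjusted p = 0.096, 0.13 and 0.25), and 0 of 3 were called in edgeR, where 0.998% of all genes were called in either direction. All 3 passed an unadjusted p under 0.05, and DESeq2 called 1 of them, IFI35, at 1.01 on the log2 scale. DESeq2 called 367 of all 19944 genes for this difference. At 20 ng/ml, 3 of 3 genes were called higher in D-F, against 1.2% of all genes, and 2 of 3 in A-C, against 0.632%. The gene not called was NMI, at 0.79 ± 0.13 (SE; edgeR adjusted p = 0.016), under 2-fold in A-C and at 1.304 ± 0.128 in D-F. EPSTI1 reached 3.41 ± 0.19 and 4.11 ± 0.20, and IFI35 2.54 ± 0.20 and 3.04 ± 0.20, in A-C and D-F. The differences at this dose, of 0.71 ± 0.26 for EPSTI1, 0.51 ± 0.18 for NMI and 0.50 ± 0.27 for IFI35, were not called (SE; edgeR adjusted p = 0.38, 0.33 and 0.57), where 0.231% of all genes were called in either direction. Of these, 2 passed an unadjusted p under 0.05 and DESeq2 called 0. The differences moved with single control samples. At 200 ng/ml NMI came to 0.27 without A replicate 1 and EPSTI1 to 0.56 without A replicate 2. At 20 ng/ml EPSTI1 came to 0.39 and IFI35 to 0.23 without A replicate 2, and IFI35 to 0.25 without D replicate 1 and 0.75 without D replicate 2.

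**Figure D2:**
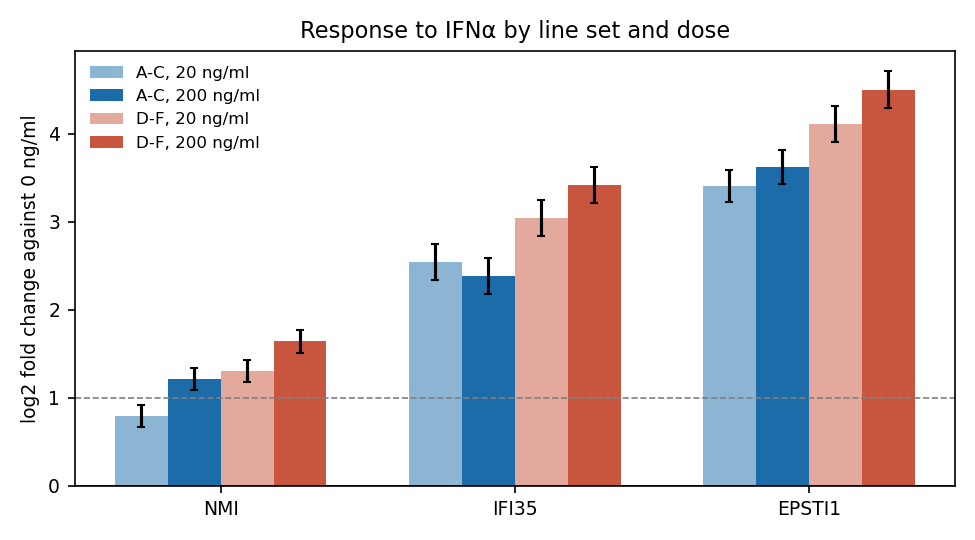
Log2 fold change of NMI, IFI35 and EPSTI1 against the untreated samples of the same line set, at 20 and 200 ng/ml IFNα. Bars are edgeR estimates, error bars are standard errors, and the dashed line is 2-fold; NMI at 20 ng/ml in A-C, at 0.79, is the bar under that line.

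Before treatment, EPSTI1 and NMI were lower in set D-F than in A-C. The log2 difference of D from A was -1.68 ± 0.21 for EPSTI1 and -1.03 ± 0.13 for NMI (SE; edgeR adjusted p = 0.00013 and 0.00014), and both were called, whereas IFI35 differed by -0.22 ± 0.20 (SE; edgeR adjusted p = 0.40), a value that turned to 0.039 without A replicate 2. Calls were common in this comparison, at 26.6% of all tested genes in either direction, so 2 of 3 is read against that share. The D controls enter both this comparison and the D-F responses. NMI was no longer called when A replicate 1 or D replicate 2 was left out, at -0.87 and -0.93.

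In each gene, at least 1 transcript was called higher with IFNα, and the leading transcript of EPSTI1 was listed at 0 in both untreated D samples. Transcript values were divided among overlapping isoforms by the program of the authors, and they spread far more between replicates than gene values, with a common biological coefficient of variation of 0.837 against 0.196. Of the 10 transcripts listed for EPSTI1, 5 passed the filter on low counts and 3 were called higher at 200 ng/ml. Of 8 listed for IFI35, 7 passed and 2 were called higher, and of 4 listed for NMI, all passed and 1 was called higher. Among all tested transcripts 0.343% were called higher at this dose. At 20 ng/ml the called transcripts were 2, 1 and 1, against 0.24% of all. Without D replicate 1 or D replicate 2, the total of 6 called at 200 ng/ml came to 3 and the total of 4 at 20 ng/ml came to 2.

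NMI was expressed almost entirely as NMI-201, the transcript with 8 exons and the full reading frame of 921 bases. Its share of the summed NMI TPM was 87.7% ± 1.94 in controls, 88.4% ± 2.37 at 20 ng/ml and 89.6% ± 1.62 at 200 ng/ml (SD, n = 4). It rose by 1.40 ± 0.12 on the log2 scale at 200 ng/ml (SE; edgeR adjusted p = 0.0033). The retained-intron transcripts NMI-204 and NMI-203 and the short coding NMI-202 averaged 5.17, 4.26 and 3.52 TPM at 200 ng/ml, and none was called.

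IFI35 was divided between IFI35-204 and IFI35-203, both with 7 exons and with reading frames of 864 and 858 bases. The TPM of IFI35-204 was 6.93 and 8.39 in A, 60.1 and 56.8 in B, 63.8 and 51.4 in C, 4.90 and 5.76 in D, 81.0 and 56.3 in E, and 103 and 68.9 in F. That of IFI35-203 was 3.86 and 6.79 in A, 24.0 and 28.7 in B, 19.0 and 13.7 in C, 6.42 and 8.52 in D, 37.5 and 59.5 in E, and 43.0 and 89.8 in F. In both, every treated sample exceeded every control. IFI35-204 rose by 3.35 ± 0.23 and IFI35-203 by 2.28 ± 0.36 on the log2 scale at 200 ng/ml (SE; edgeR adjusted p = 0.0012 and 0.047). The share of IFI35-204 went from 38.1% ± 7.14 to 54.6% ± 9.06 and 55.9% ± 13.1 (SD, n = 4), while that of IFI35-203 went from a mean of 37.5% to 31.2% and 27.2%. The replicates in F divided unevenly, with 58.4% and 36.7% for IFI35-204. The other 6 transcripts of IFI35, which are retained introns or non-coding, averaged at most 5.24 TPM at any dose and none was called.

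The leading transcript of EPSTI1 was EPSTI1-201, with 11 exons and a reading frame of 921 bases. It measured 2.76 and 2.25 TPM in A, 18.2 and 14.5 TPM in B, and 27.5 and 40.9 TPM in C. In D it had 0 counts in both samples, and it then measured 18.9 and 13.4 TPM in E and 15.2 and 12.4 TPM in F. Set against 3 counts in each D library, the upper 95% Poisson limit for a count of 0, its mean level was 141-fold higher in E and 119-fold higher in F. These folds allow for counting error in D only. They do not cover counting error or replicate spread in E and F, nor the error in dividing reads between isoforms. EPSTI1 as a whole was not at 0 there, since the estimates for the D samples gave their few reads to EPSTI1-209, a retained-intron transcript, at 0.65 and 0.68 TPM, to EPSTI1-202, a coding transcript with 13 exons and a reading frame of 1230 bases, at 0.32 and 0.71 TPM, and to the non-coding EPSTI1-205, at 0.50 and 0.20 TPM. EPSTI1-209 rose by 3.89 ± 0.39 and EPSTI1-202 by 3.47 ± 0.48 on the log2 scale at 200 ng/ml (SE; edgeR adjusted p = 0.0073 and 0.027). At that dose their mean levels were 9.44 and 9.41 TPM, against 24.0 TPM for EPSTI1-201. EPSTI1-210, EPSTI1-208, EPSTI1-205 and EPSTI1-204 averaged at least 1 TPM at some dose, up to 2.26 TPM for EPSTI1-210, and did not exceed 0.91 TPM in any control.

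The share of the leading transcript was higher at 200 ng/ml than in controls for each gene on average, by differences that the test used could not decide. They were 1.87 percentage points for NMI, 17.8 for IFI35 and 20.4 for EPSTI1 (p = 0.33, 0.11 and 0.17, exact two-sided permutation tests within the line sets). With 36 arrangements the smallest p that this test can give is 0.0556. For EPSTI1 the control shares ranged from 0% in D to 72.1% in A replicate 1, which is wider than the range of 33.5% to 64.2% at 200 ng/ml, and the difference fell to 11.6 points without either D sample and rose to 35.6 points without A replicate 1.

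**Figure D3:**
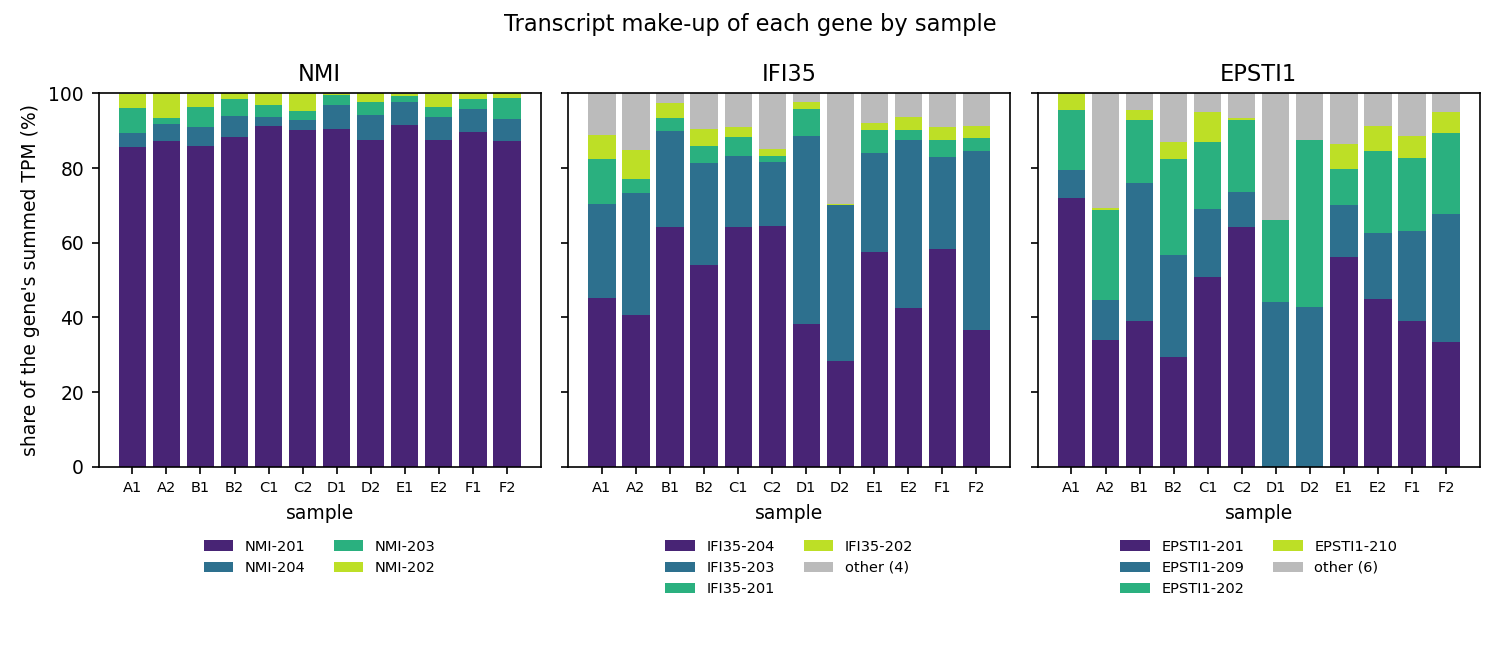
Share of each gene's summed TPM, in percent, taken by its 4 most abundant transcripts in each sample, with the rest in grey. NMI is nearly all NMI-201 in every sample, IFI35-204 and IFI35-203 divide IFI35, and EPSTI1-201 is absent from the bars of D1 and D2.

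None of the nearest tested genes on either side was called over both line sets. At 200 ng/ml RBM43, RND3, RPL27 and VAT1 passed the adjusted p but not 2-fold. Of the 12 neighbours, which are the 2 nearest tested genes on each side of each gene, 0 were called at 200 ng/ml and 0 at 20 ng/ml in edgeR. Over all tested genes 1.58% were called higher and 0.552% lower at 200 ng/ml, and 0.963% and 0.186% at 20 ng/ml. With so few neighbours, a count of 0 is near these shares. DESeq2 also called 0, and at an unadjusted p under 0.05 there were 4 higher and 2 lower at each dose. Beside NMI, the RNA-binding protein gene RBM43, 8586 bases away, had a log2 fold change of 0.82 ± 0.13 at 200 ng/ml (SE; edgeR adjusted p = 0.0040), under 2-fold. RND3, 731454 bases away, had 0.78 ± 0.13 (SE, edgeR adjusted p = 0.0063), and RIF1, a DNA repair gene 119826 bases away, had 0.21 ± 0.06. Beside IFI35, VAT1 lies 149 bases away on the opposite strand and had -0.79 ± 0.13 (SE; edgeR adjusted p = 0.0052). The ribosomal protein gene RPL27 had -0.57 ± 0.08 (SE, edgeR adjusted p = 0.0017). In set A-C alone VAT1 was called lower, at -1.01 ± 0.19 (SE; edgeR adjusted p = 0.014). Around EPSTI1, AKAP11, DGKH, DNAJC15 and CCDC122 had log2 fold changes between -0.13 and 0.40. Of these, DNAJC15 lies 30932 bases away, and AKAP11, DGKH and CCDC122 lie 563121, 629810 and 831638 bases away. An assembled locus with no gene name overlaps IFI35 on the same strand, at chr17:43006808-43011455, with 2 to 46 counts per sample. It was called higher at 200 ng/ml, by 2.68 ± 0.55 (SE; edgeR adjusted p = 0.014), and reads from it and from IFI35 may have been divided by the authors' program. The libraries were stranded, while how strand was used in counting is not given in the sources used here.

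**Figure D4:**
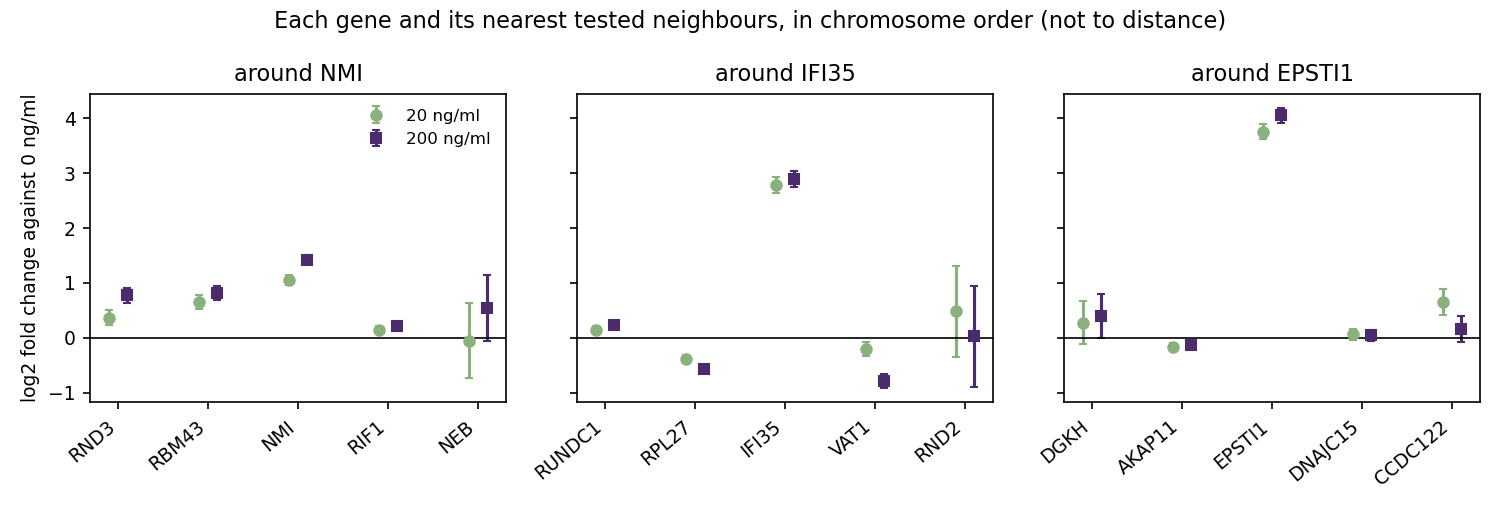
Log2 fold change of NMI, IFI35 and EPSTI1 and of their 2 nearest tested genes on each side, in chromosome order, at 20 and 200 ng/ml IFNα; the spacing is not to distance. Points are edgeR estimates over both line sets and error bars are standard errors; the neighbours lie between -0.79 and 0.82 at 200 ng/ml, with EPSTI1 at 4.06, IFI35 at 2.90 and NMI at 1.43.

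Of the machinery that carries the type I interferon signal, STAT2 and IRF9 rose at both doses, and the receptor and kinase genes were not called. In a list of 16 signalling genes, all tested, 5 were called higher at 200 ng/ml and 0 lower, where 1.58% of all tested genes were called higher and 0.552% lower, with a median log2 fold change of 0.19 against -0.01 over all tested genes. The same number, 5, was called higher at 20 ng/ml, against 0.963% of all genes, with a median of 0.16 against -0.01. Those called at 200 ng/ml included STAT2, at 1.80 ± 0.08, and IRF9, at 2.69 ± 0.13, which belong to ISGF3, together with ISG15, a ubiquitin-like modifier, at 4.199 ± 0.165, and USP18, the protease that removes ISG15 and dampens receptor signalling, at 4.16 ± 0.11 (log2 fold change ± SE). IFNAR1, IFNAR2, TYK2 and JAK1 had values between -0.11 and 0.10. At an unadjusted p under 0.05, 1 gene of the list was lower at 200 ng/ml and 2 at 20 ng/ml, and DESeq2 called 0 lower. Among them, PTPN11 also passed the adjusted p at both doses but not 2-fold. Its log2 fold change was -0.48 ± 0.05 at 200 ng/ml and -0.44 ± 0.05 at 20 ng/ml (SE, edgeR adjusted p = 0.00041 and 0.0011). Between the doses 0 of 16 were called in edgeR, against 0.0451% of all genes, and 0 in DESeq2, with 4 higher and 2 lower at an unadjusted p under 0.05.

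The second list held 19 names of proteins described as partners or targets of NMI, IFI35 or EPSTI1, of which 16 were tested, and it overlaps the list above. Here 5 were called higher and 0 lower at each dose, against 1.58% of all tested genes called higher at 200 ng/ml and 0.963% at 20 ng/ml, and the median of their log2 fold changes was 0.45 at the higher and 0.40 at the lower dose, against -0.01 over all genes, and no gene was lower at an unadjusted p under 0.05 or in DESeq2. They included the ubiquitin ligase gene TRIM21, at 1.97 ± 0.08, the transcription factor gene IRF7, at 2.81 ± 0.16, DDX58, which encodes the RNA sensor RIG-I that IFI35 has been described to bind, at 2.83 ± 0.06, and EIF2AK2, which encodes PKR, at 1.70 ± 0.09 (log2 fold change at 200 ng/ml ± SE). STAT3, STAT5A and STAT5B, which NMI can bind, had 0.22, 0.45 and -0.10, and the receptor TLR4 and its adaptor MYD88 had 0.27 and 0.51, none of which was called. Between the doses 0 of 16 were called, against 0.0451% of all genes, 5 were higher at an unadjusted p under 0.05, and DESeq2 called 0. TRIM21, at 0.49 ± 0.07, and DDX58, at 0.45 ± 0.06, passed the adjusted p between the doses but not 2-fold (SE; edgeR adjusted p = 0.045 and 0.021).

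Each of the 3 genes had its closest pattern among different genes. Likeness was measured as the root mean square difference of centred log2 levels (counts scaled for depth with TMM) over the 12 samples, among 13033 genes with a mean count of at least 50, so that 0 is an identical pattern. For NMI the nearest were NT5E, which encodes the surface enzyme CD73, at 0.178, TDRD7, a tudor domain gene, at 0.206, and PSMB9, an immunoproteasome subunit gene, at 0.213. For IFI35 they were IFI27 at 0.219, IFIH1, which encodes the RNA sensor MDA5, at 0.235, and OAS3, an oligoadenylate synthetase gene, at 0.246. For EPSTI1 they were USP18 at 0.294, IFIT3 at 0.398 and MX1, an antiviral GTPase gene, at 0.440. The distances between the members were 0.961 for NMI and IFI35, 1.29 for NMI and EPSTI1, and 0.879 for IFI35 and EPSTI1. The genes above were picked as the closest of 13033, with the members left out of the search. That the members lie farther apart than these was therefore nearly fixed in advance, and nothing is concluded from it. The median distance over all compared genes was 0.808 from NMI, 1.44 from IFI35 and 1.98 from EPSTI1, and it grows with the size of the gene's own response, so that distances from different genes are not on a common footing.

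As edgeR log2 fold changes at 200 ng/ml, NT5E had 0.94 in A-C and 1.17 in D-F, and TDRD7 had 1.82 and 1.56. PSMB9 had 1.3004 and 1.39. TDRD7, unlike NMI, thus had its higher value in A-C. Untreated D lay below untreated A by a difference of -0.92 for NT5E, -0.63 for TDRD7 and -0.67 for PSMB9. IFI27, nearest to IFI35, stood 2.69 and 3.26 higher in A-C and D-F, with 0.10 between the untreated sets. USP18, nearest to EPSTI1, stood 3.54 and 4.78 higher, with -1.45 between the untreated sets, and IFIT3 stood 2.86 and 4.62 higher, with -2.01 between them. These fold changes come from the samples by which the genes were ranked, so they are description, and no p-value is given for them.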

How the data were processed

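Total RNA was depleted of ribosomal RNA, made into stranded libraries and sequenced by the authors. The submitters' processing notes name Trimmomatic 0.36, HISAT2 2.1.0, StringTie 1.3.3b and GRCh38.p10. The authors deposited an estimated count per gene and transcript, not scaled for depth, and TPM and FPKM values that the authors had scaled for length and depth. Division of reads among overlapping transcripts is part of these estimates. FPKM was not used further.

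Samples were grouped by the letters and doses in their titles and the design text. The 3 genes, the gene lists and the tests were chosen with earlier results of these data known. For all 60099 genes, transcript counts added up to the gene count. Counts were fitted in edgeR 4.0.16 (R 4.3.3) with TMM, filterByExpr and the quasi-likelihood test over the 6 letters, with line sets weighted equally and Benjamini-Hochberg adjustment. Standard errors were obtained by dividing each log2 fold change by the root of its F statistic. All p-values adjusted in this way cover 19944 genes or 75876 transcripts. No share over all genes is given beside counts at an unadjusted p under 0.05, so those counts cannot be read against one. Alternatives were DESeq2 1.42.0, RLE size factors, no filter, a replicate block, only the compared groups, an unadjusted p, and leaving out each sample. The fitting was tested on simulated data. Replicates of a letter differed by more than counting noise (chi-square per degree of freedom from 11.7 to 16.4). Same-numbered samples did not deviate together (r from -0.051 to 0.058), so replicate numbers were not treated as pairs.

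The named genes were the 3 genes, their 3 most similar genes each, the 2 nearest tested genes on each side, up to 4 genes of each list with the largest change at 200 ng/ml, and transcripts with a mean of at least 1 TPM at any dose. Names of further list genes and of EPSTI1 neighbours without a call were given to describe their groups, and those beyond the rule were chosen after their values were seen. Promoter sequences came from RefSeq tables (GRCh38.p14), and exon and transcript types from GENCODE release 29. Single values of some list genes and markers are not reported here, while the counts and medians of their lists include them.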

Additional observations from a re-analysis of the deposited data

How the results depend on the processing

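The responses of the 3 genes at 200 ng/ml, pooled and within each line set, kept their direction and their call under all 18 alternatives. Not all of these could have changed a call. An unadjusted p on the same fit cannot lose one, and leaving out a sample that a comparison does not use hardly moves its estimate. Over these the pooled log2 fold change was 3.93 to 4.22 for EPSTI1, 2.78 to 3.03 for IFI35 and 1.35 to 1.505 for NMI. At 20 ng/ml EPSTI1 and IFI35 kept their calls, while NMI ranged from 0.97 to 1.13 when single samples were left out and was lost without A replicate 2 or D replicate 2. For untreated D against A, leaving out single samples gave 1 to 2 called genes, -1.18 to -0.87 for NMI, and -0.48 to 0.039 for IFI35, whose sign turned without A replicate 2. Leaving out single samples moved the difference between sets to 0.27 to 0.57 for NMI, 0.77 to 1.29 for IFI35 and 0.56 to 1.13 for EPSTI1 at 200 ng/ml, and to 0.35 to 0.66, 0.23 to 0.75 and 0.39 to 0.96 at 20 ng/ml. The difference of the 200 ng/ml response between sets was called for 1 gene, IFI35, with an unadjusted p (1.03) and in DESeq2 (1.01). With a replicate block, every gene-level call of the 3 genes was kept, as were those not made. Transcript calls were the least stable. Against 6 at 200 ng/ml and 4 at 20 ng/ml, an unadjusted p gave 10 and 10, the replicate block 2 and 2, DESeq2 9 and 9, and leaving out single samples 3 to 5 and 2 to 4. The causes were not tested. Over the whole table, DESeq2 called 43 genes between the doses against 9 in edgeR, 17 were called with no filter and 0 with the block. For the difference between sets, the calls at 200 ng/ml were 199 in edgeR, 367 in DESeq2, 100 with the compared groups alone and 69 with the block, and those at 20 ng/ml were 46, 158, 36 and 30. DESeq2 called 236 genes at 20 ng/ml in A-C against 142, and 180 were called at 200 ng/ml in A-C with the compared groups alone against 434. All tested transcripts called at 200 and 20 ng/ml numbered 375 and 230 in edgeR, 2203 and 1492 in DESeq2, 241 and 161 with no filter, and 87 and 70 with the block. With log2(TPM + 1) in place of TMM-scaled counts, 2 of the 3 most similar genes were shared for each gene. Transcripts with a few counts in controls have folds that counting error limits.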
